A study of Mus musculus with 12 samples.

Results

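The genes described here are 33 genes of the unfolded protein response and of endoplasmic reticulum (ER) stress. They were chosen by symbol, as the rows of the gene table whose Ensembl identifiers map to these symbols, and are 33 of the 54532 genes in the table. The rule uses symbols alone and no measured value. Colon RNA came from wild-type C57BL/6J mice in 4 groups of 3 samples, named for the diet, CD or HFD (high-fat diet), and for 2% DSS, which was added to either diet in CD+DSS and HFD+DSS. DSS is dextran sulfate sodium, a sulfated polysaccharide that injures the colonic epithelium and is used to provoke colitis in rodents. The labels do not spell out CD and give no age, sex, length of feeding or day of DSS. They also do not say whether the 3 samples of a group are separate animals, so each p-value measures only the spread between these samples, which may be technical. The series title concerns a high-fat diet, autophagy and the severity of colitis.

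The unfolded protein response is the set of signals by which a cell answers misfolded protein in the ER. The sensors sit in the ER membrane. IRE1 (Ern1, and Ern2 in mucosal epithelium) cuts Xbp1 mRNA so that it is spliced to an active form, PERK (Eif2ak3) phosphorylates the translation factor eIF2α and thereby favours translation of Atf4, and ATF6 is cut in the Golgi to release a transcription factor. Their targets are chaperones, protein disulfide isomerases and the machinery of ER-associated degradation (ERAD), which pulls misfolded proteins back to the cytosol. In the colon, goblet cells and plasma cells secrete large amounts of protein and depend on this system. Gene-level mRNA does not measure the splicing of Xbp1, the phosphorylation of PERK or the cleavage of ATF6.

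Several of these genes carry the ER stress response element (ERSE), a promoter motif read by ATF6 and XBP1 together with NF-Y. Its letters are CCAAT and CCACG, with 9 free bases between them. It was searched on both strands in RefSeq promoter windows (GRCm38.p6) of 250 bases before to 50 after each gene's start. A window was found for 28 of the 33 genes (not for Atf6, Derl1, Ern2, Hyou1 and Manf), and 8 of the 28 (28.6%) held the full motif, against 37 of 27025 genes with a window (0.137%). The sites below are shown because they make visible what these promoters share outside the expression data. Capitals mark both parts of the motif, and each line reads 5′ to 3′ on the strand that carries CCAAT.
Hspa5: ttcaCCAATcggaggcctCCACGacgg
Calr: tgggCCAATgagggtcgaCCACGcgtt
Creld2: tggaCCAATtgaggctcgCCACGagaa
Syvn1: gcaaCCAATcggcggtagCCACGggaa
Hsp90b1, site farther from the start: aagcCCAATcgcaaggagCCACGcttc
Hsp90b1, site nearer the start: ctcaCCAATcgtgcctcaCCACGcact
The Hspa5 site is at chr2:34772021-34772047 on the plus strand, and the first base of its CCAAT lies 65 bases before the RefSeq start. The starts of gene spans given later are those of GENCODE M21, which for Hspa5 lies upstream of the RefSeq start and of the site. The Calr site is at chr8:84847071-84847097 (plus strand, opposite to the gene), the Creld2 site at chr15:88819516-88819542 (minus strand, opposite to the gene) and the Syvn1 site at chr19:6046528-6046554 (plus strand). The Hsp90b1 sites are at chr10:86705634-86705660 (minus strand) and chr10:86705529-86705555 (plus strand, opposite to the gene). Canx, Dnajc3 and Pdia6 are the other genes with a full motif. The short part CCACG alone, which lies inside every full motif, was in 21 of the 28 windows (75.0%) and in 35.5% of all windows. The UPR element core TGACGTGG, read by XBP1 and ATF6, was in 0 of the 28 windows and in 0.714% of all windows. A match describes letters and does not show that a factor binds there.

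The ATF4 branch has a motif of its own, the composite of ATF4 and a C/EBP partner with the letters TTGCATCA. It was in 3 of the 28 windows (10.7%) and in 1.03% of all windows. The 3 sites are shown because they are the matches to this motif in the set, in a transcription factor (Atf3), a PERK and ATF4 branch target (Chac1) and an ERAD gene (Herpud1). Capitals again mark the motif.
Atf3: gcacTTGCATCAccaa
Chac1: gccgTTGCATCActcc
Herpud1: cgggTTGCATCAgccc
These sites are at chr1:191183432-191183447 (minus strand, Atf3), chr2:119351045-119351060 (plus strand, Chac1) and chr8:94386313-94386328 (plus strand, Herpud1), each on the strand of its gene.

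Values are FPKM, the fragments of a gene relative to its exon length and to a library size, so levels can be compared between genes. The library size inferred from the values could differ from the number of fragments on genes. It was 13500000 against 16000000 fragments in CD+DSS replicate 2, and 19100000 against 17900000 in HFD+DSS replicate 3. Comparison between libraries rests on the scaling of the deposited values. Between 14700000 and 17900000 fragments fell on genes in a library. Values of a group are listed in the order of replicates 1 to 3. All libraries had the same median ratio to the geometric mean over genes, 1.009, so the deposited values were already on a common scale that holds the median gene still. Summed colonic epithelium markers (10 genes) summed to 6300 to 20500 FPKM, so the markers of the labelled tissue were present in every library, and the 12 exocrine pancreas markers summed to at most 1.92 FPKM, with Try4 and Try5 at 0. Markers of position along the gut differed within and between groups: Hoxa13, Hoxb13 and Hoxd13 summed to 38.3 to 111 FPKM in CD, 7.04 to 34.7 in HFD, 1.62 to 40.5 in CD+DSS and 46.6 to 92.8 in HFD+DSS. HFD+DSS replicate 3 had the highest smooth muscle sum (8 genes, 3950 FPKM against at most 2190 elsewhere) and the highest enteric neuron and glia sum (8 genes, 89.2 against at most 37.1).

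Levels within the set differed widely. Protein disulfide isomerase Pdia3 and the lectin chaperone Calr were the highest, with means over the 12 libraries of 269 and 268 FPKM. BiP (Hspa5), the main ER chaperone and the repressor of the sensors, averaged 226 FPKM, and the ER form of HSP90 (Hsp90b1) averaged 200. The sensors were far lower, at 7.72 (Ern1), 9.35 (Eif2ak3), 9.51 (Atf6) and 17.6 FPKM (Ern2). The lowest were the PERK and ATF4 branch targets Ppp1r15a (4.14), Chac1 (1.26) and Trib3 (0.413). Trib3, a pseudokinase induced by ATF4 and CHOP, was between 0.187 and 0.628 FPKM, or 7 to 22 fragments, and is the 1 gene of the set that did not pass the filter of FPKM 1 or more in at least 3 libraries. The remaining 32 genes were tested. Derl1, an ERAD membrane protein, varied least between libraries (coefficient of variation 7.51%), and Chac1 (77.4%) and Atf3 (67.1%) varied most.

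**Figure D1:**
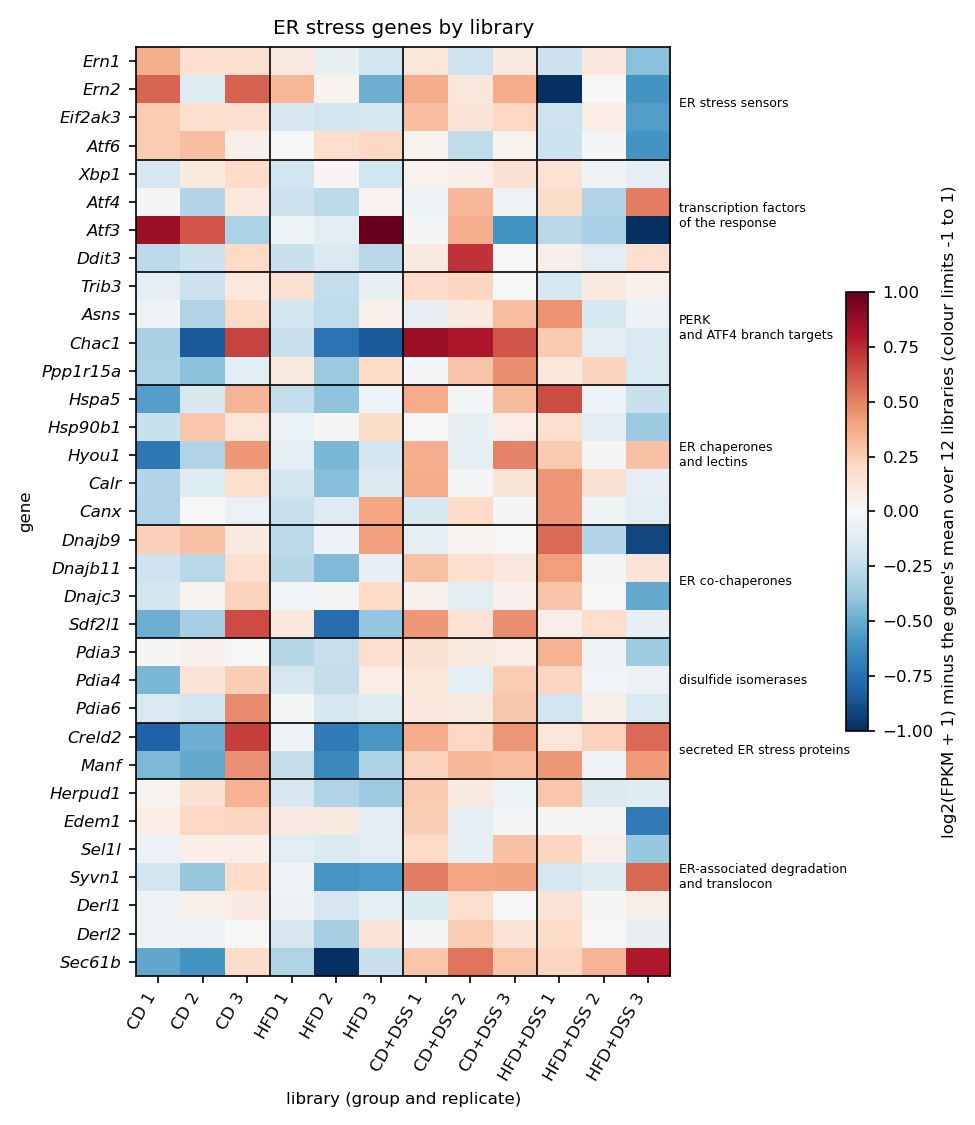
Each row is 1 of the 33 genes, ordered by role, and each column 1 library, ordered by group. Colour is log2(FPKM + 1) minus the gene's mean over the 12 libraries, with colour limits at -1 and 1. CD replicate 3 is redder than the other libraries without DSS in most chaperone, co-chaperone and secreted-protein rows, and HFD+DSS replicate 3 is the lowest library in 10 rows.

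CD replicate 3 stood apart in these genes. It was the highest of the 6 libraries without DSS in 21 of the 33 genes, and in 19 of those 21 it was at or above the median of the 6 DSS libraries. Creld2 measured 28.9, 36.3 and 83.4 FPKM on CD and 49.8, 31.2 and 33.9 on HFD without DSS, against 66.6, 59.55 and 70.2 on CD and 55.9, 60.6 and 76.55 on HFD with DSS. CD replicate 3 was thus above every DSS library in Creld2, a secreted ER chaperone. The same library had the highest sums of goblet cell markers (10 genes, 9550 FPKM against at most 6640 elsewhere, of which Clca1 gave 3790) and of plasma cell markers (13 genes, 12300 against at most 11500), and of the 6 Paneth cell markers (3200 against at most 266, of which Ang4 gave 3190, with Defa17 and Defa30 at 0 everywhere). Without Clca1 its goblet sum was 5750, next to 5780 in HFD+DSS replicate 1, and its Muc2 (768 FPKM) lay within the range of the others (304 to 1270). The part of these cells in the high values was not tested. In whole tissue, fewer cells of a type and less RNA per cell cannot be told apart.

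The DSS comparison asks how the set differed between injured and uninjured colon. Across both diets the translocon subunit gene Sec61b rose, and it was the only 1 of the 32 genes to pass the test, with 0 genes passing in the other direction. Beside it, genes of secreted ER proteins (Creld2, Manf) and of folding and degradation (Hyou1, Dnajb11, Syvn1) had positive fold changes that did not pass. All 4 sensors had negative ones that did not pass, and that of Eif2ak3 was near 0 (-0.015 ± 0.108). The test was limma on log2(FPKM + 1) over 14179 genes, at a Benjamini-Hochberg adjusted p under 0.05. Of all genes tested, 2.74% passed in the DSS comparison averaged over diets (265 up, 124 down), and the count of 1 of the 32 here is near that background. The unadjusted p was under 0.05 for 12 of the 32 genes and for 3329 of all genes (23.5%).

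Sec61b (ENSMUSG00000053317, chr4:47474658-47483242 in mm10) encodes the beta subunit of the SEC61 channel, through which new proteins enter the ER. It measured 39.3, 37.2 and 64.7 FPKM on CD and 45.99, 27.9 and 48.5 on HFD without DSS, against 69.2, 82.65 and 68.9 on CD and 66.2, 72.02 and 99.9 on HFD with DSS. Every DSS library was above every library without DSS, although CD replicate 3 came close to the lowest DSS library. The log2 fold change averaged over diets was 0.82 ± 0.19 (SE), with a limma adjusted p of 0.0455. Across all genes, 2.17% had all 6 DSS libraries above the 6 others and 1.29% had them all below. Within each diet Sec61b was also separated, at 0.67 ± 0.27 under CD (limma adjusted p = 0.279) and 0.96 ± 0.27 under HFD (adjusted p = 0.169), neither of which passed. The call sits at the threshold, and was lost in 14 of 18 other settings or left-out libraries. Over all 18 the fold change ranged from 0.68 to 0.94. Leaving out CD replicate 3 gave 0.94 with an adjusted p of 0.0255, and leaving out HFD+DSS replicate 3 gave 0.73 with an adjusted p of 0.0794.

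Without CD replicate 3, limma called 4 of the 32 genes in the DSS comparison averaged over diets, all up: Sec61b, Creld2, Manf and Chac1, against 3.38% of all genes in that fit. That library had the highest value without DSS in each of these 4 genes, so leaving it out had to raise their fold changes. Creld2 moved from 0.65 ± 0.23 (adjusted p = 0.138) with all libraries to 0.87 (adjusted p = 0.0232) without that library. Manf (ENSMUSG00000032575) encodes an ER-resident protein that is secreted under ER stress. It measured 31.7, 30.35 and 60.1 FPKM on CD and 36.8, 27.5 and 35.03 on HFD without DSS, against 51.2, 55.1 and 54.4 on CD and 59.3, 42.4 and 58.9 on HFD with DSS. All HFD+DSS libraries were above all HFD libraries, whereas CD replicate 3 exceeded every DSS library. The fold change of Manf averaged over diets was 0.57 ± 0.18 (limma adjusted p = 0.0997), and 0.72 (adjusted p = 0.0244) without CD replicate 3.

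**Figure D2:**
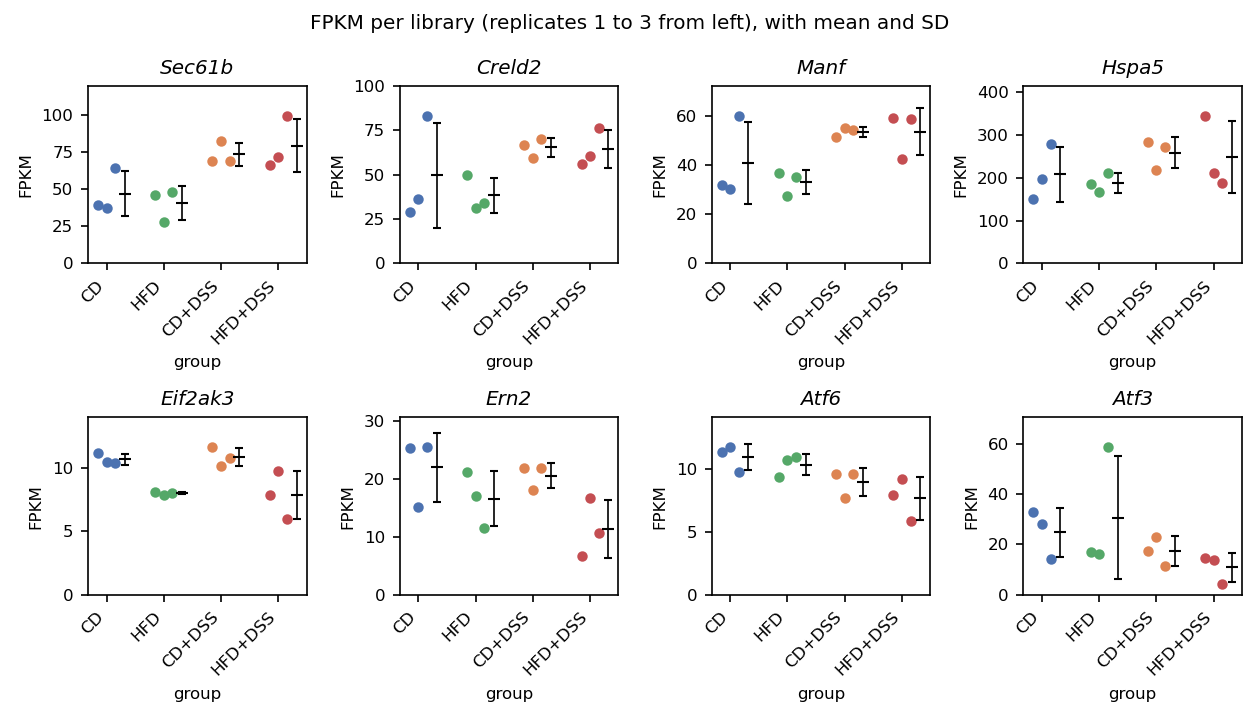
FPKM of 8 genes in each library, 1 panel per gene, with the 4 groups on the x axis, replicates 1 to 3 from left to right, and the group mean with its SD (n = 3) beside them. In Sec61b all 6 DSS libraries lie above the 6 others, in Creld2 and Manf CD replicate 3 lies above every DSS library, and in Eif2ak3 all 6 HFD libraries lie below the 6 CD libraries.

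Among the chaperones, BiP (Hspa5, ENSMUSG00000026864, chr2:34771970-34777547) measured 149.9, 197 and 278 FPKM on CD and 186, 166 and 212 on HFD without DSS, against 285, 217 and 273 on CD and 346, 212 and 188 on HFD with DSS. The groups overlapped in both diets, with HFD+DSS replicate 1 the highest and CD replicate 1 the lowest library. The fold change of Hspa5 averaged over diets was 0.35 ± 0.19 (limma adjusted p = 0.297), 0.22 without HFD+DSS replicate 1 and 0.21 after quantile normalization. Hyou1, the nucleotide exchange factor of BiP, had 0.44 ± 0.19 and Calr 0.33 ± 0.14, with adjusted p of 0.189 and 0.19. Canx, the membrane-bound partner of Calr, had 0.11 ± 0.15 and Hsp90b1 -0.10 ± 0.14. In the chaperone and lectin group 4 of 5 fold changes were positive and 0 passed.

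Of the co-chaperones, Dnajb11, which delivers clients to BiP, measured 47.7, 45.4 and 62.3 FPKM on CD and 45.03, 40.2 and 52.1 on HFD without DSS, against 67.6, 62.15 and 59.75 on CD and 74.1, 54.7 and 60.4 on HFD with DSS. All HFD+DSS libraries were above all HFD libraries, with a fold change of 0.45 ± 0.17 (limma adjusted p = 0.302), while CD replicate 3 was above the lowest CD+DSS libraries. Sdf2l1, which works with Dnajb11, had a fold change averaged over diets of 0.40 ± 0.21. Dnajc3 (-0.08 ± 0.14) and Dnajb9 (-0.24 ± 0.21) had negative values. The disulfide isomerases had small values: Pdia3 had 0.09 ± 0.14, Pdia4 0.14 ± 0.14 and Pdia6 0.06 ± 0.13. None of these 7 genes passed the test.

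In the ERAD group Syvn1 stood out. It encodes HRD1, the ubiquitin ligase that marks misfolded ER proteins, and measured 12.4, 10.9 and 16.65 FPKM on CD and 13.9, 9.24 and 9.32 on HFD without DSS, against 20.97, 19.2 and 19.3 on CD and 12.7, 13.1 and 21.9 on HFD with DSS. All 3 CD+DSS libraries were above the CD libraries, and under HFD the groups overlapped, since HFD replicate 1 was above both lower DSS libraries. Its fold change averaged over diets was 0.53 ± 0.16 (limma adjusted p = 0.0968). Its partner Sel1l had 0.09 ± 0.12, the derlins Derl1 and Derl2 had 0.08 ± 0.09 and 0.16 ± 0.10, and Edem1, which trims sugars on misfolded glycoproteins, had -0.18 ± 0.14.

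Herpud1, an ERAD scaffold and target of both the ATF6 and ATF4 branches, measured 55.05, 60.1 and 68.97 FPKM on CD and 47.9, 43.8 and 41.8 on HFD without DSS, against 65.1, 57.6 and 52.2 on CD and 65.9, 48.8 and 49.6 on HFD with DSS. The 3 HFD libraries were below all 9 others. The fold change with DSS was -0.07 ± 0.17 under CD and 0.28 ± 0.17 under HFD, with limma adjusted p of 0.858 and 0.472.

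The PERK and ATF4 branch was uneven. Atf4 itself, the transcription factor of the integrated stress response, measured 57.5, 46.4 and 61.3 FPKM on CD and 48.9, 47.3 and 58.1 on HFD without DSS, against 55.15, 72.1 and 54.85 on CD and 64.98, 46.1 and 81.6 on HFD with DSS. The groups overlapped, and the fold change with DSS averaged over diets was 0.21 ± 0.15 (limma adjusted p = 0.428). Ddit3, which encodes the pro-apoptotic factor CHOP, measured 5.53, 5.72 and 7.98 FPKM on CD and 5.72, 6.02 and 5.44 on HFD without DSS, against 7.34, 11.9 and 6.81 on CD and 7.16, 6.24 and 7.77 on HFD with DSS. Under HFD all DSS libraries were above the others, CD replicate 3 was above the lower CD+DSS libraries, and the averaged fold change was 0.31 ± 0.14 (limma adjusted p = 0.206).

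Chac1, which degrades glutathione and is a target of ATF4, measured 0.659, 0.1555 and 2.31 FPKM on CD and 0.767, 0.242 and 0.159 on HFD without DSS, against 2.76, 2.625 and 2.21 on CD and 1.48, 0.9285 and 0.864 on HFD with DSS. Both lower CD libraries and all HFD libraries were below every DSS library, whereas CD replicate 3 lay among the CD+DSS libraries. Its fold change averaged over diets was 0.77 ± 0.23 (limma adjusted p = 0.0903) and 0.98 (adjusted p = 0.0204) without CD replicate 3. Under CD it was 0.93 ± 0.32 (adjusted p = 0.233), and 0.59 without CD replicate 2. These values rest on few fragments, 4 in the lowest library and 77 in the highest, and the size depends on the pseudocount: with a pseudocount of 0.1 the averaged fold change was 1.60, and limma voom on recovered fragments gave 1.81, neither past the threshold.

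Ppp1r15a, whose product GADD34 recruits the phosphatase of eIF2α, measured 3.06, 2.795 and 3.68 FPKM on CD and 4.40, 2.91 and 4.75 on HFD without DSS, against 3.98, 5.15 and 5.98 on CD and 4.465, 4.91 and 3.55 on HFD with DSS. The CD+DSS libraries were all above the CD libraries, while the HFD and HFD+DSS libraries overlapped. Its fold change with DSS was 0.52 ± 0.19 under CD (limma adjusted p = 0.243) and 0.09 ± 0.19 under HFD (adjusted p = 0.859). Asns, asparagine synthetase, had 0.18 ± 0.14 averaged over diets.

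Xbp1, the factor downstream of IRE1, was abundant and nearly even, at 86.99, 104 and 112 FPKM on CD and 84.99, 98.5 and 85.4 on HFD without DSS, against 100.1, 102.5 and 109 on CD and 108.5, 95.4 and 92.04 on HFD with DSS. Its highest library was 1.32 times its lowest, and the fold change with DSS was 0.09 ± 0.11 (limma adjusted p = 0.632). This total includes the spliced and unspliced forms. Atf3, a stress-induced factor downstream of ATF4, went the other way, at 32.7, 27.9 and 14.03 FPKM on CD and 17.02, 16.3 and 58.6 on HFD without DSS, against 17.5, 23.04 and 11.4 on CD and 14.4, 13.96 and 4.26 on HFD with DSS. The HFD+DSS libraries were below the HFD libraries, of which replicate 3 was the highest of all, and the fold change under HFD was -1.31 ± 0.55 (limma adjusted p = 0.334). The 12 immediate early genes, which respond within minutes to handling and to wounding, summed to 219 to 361 FPKM without DSS and 218 to 413 with DSS, and HFD+DSS replicate 3 was the lowest library for both Atf3 and this sum.

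The sensors had fold changes with DSS from -0.34 to -0.02 averaged over diets. Eif2ak3 was the one nearest 0, and under CD it had a positive value (0.02 ± 0.15). Atf6 (ENSMUSG00000026663, chr1:170704674-170867771) measured 11.4, 11.8 and 9.80 FPKM on CD and 9.39, 10.7 and 10.99 on HFD without DSS, against 9.63, 7.68 and 9.65 on CD and 7.955, 9.24 and 5.86 on HFD with DSS. In each diet every DSS library was below every library without DSS, but HFD replicate 1 was below both higher CD+DSS libraries, so that the pooled groups overlapped. The fold change was -0.34 ± 0.12 averaged over diets (limma adjusted p = 0.127). Ern1, IRE1α, measured 10.1, 8.665 and 8.65 FPKM on CD and 8.165, 7.185 and 6.52 on HFD without DSS, against 8.39, 6.47 and 8.25 on CD and 6.43, 8.31 and 5.46 on HFD with DSS. Under CD its DSS libraries were below the others, and the averaged fold change was -0.17 ± 0.11 (limma adjusted p = 0.395).

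Within single diets 0 of the 32 genes passed the DSS test, where 0.0846% of all genes passed under CD and 0.339% under HFD. Unadjusted p was under 0.05 for 4 of the 32 genes under CD and 6 under HFD, where 15.2% and 13.6% of all genes were, and limma voom on recovered fragments also called 0 in both. Under CD, 4 genes had all DSS libraries above the others (Ppp1r15a, Pdia3, Syvn1, Sec61b) and 3 had them below (Ern1, Atf6, Dnajb9). Of all genes, 13.7% and 10.4% did so, which puts the count of 4 of 32 near the background. Under HFD, 10 genes had all DSS libraries above (Sec61b, Manf, Creld2, Dnajb11, Hyou1, Calr, Ddit3, Chac1, Herpud1, Derl1) and 2 below (Atf6, Atf3), where 8.82% and 7.60% of all genes did so.

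The sign of the set depended on the scaling. On the deposited scale 23 of 32 fold changes averaged over diets were positive, with a median of 0.12 against 0.01 for all genes (50.9% positive), but after quantile normalization 16 were positive and 16 negative, with a median of 0.00. Under CD the deposited scale gave 22 positive and a median of 0.13, and quantile normalization 15 positive and a median of -0.02. Under HFD it gave 23 positive and a median of 0.16, and quantile normalization 18 and 0.09. Single libraries moved these medians too. The averaged one was 0.19 without HFD replicate 3. That under CD was 0.07 without CD replicate 1, 0.08 without CD+DSS replicate 3 and 0.195 without CD replicate 3, and that under HFD was 0.07 without HFD+DSS replicate 1 and 0.24 without HFD replicate 3. Rescaling libraries to the same summed FPKM gave 0.055 averaged, 0.06 under CD and 0.09 under HFD. The disulfide isomerases turned from 3 of 3 positive to 3 of 3 negative under quantile normalization. The sensors (4 of 4 negative, Eif2ak3 near 0), the PERK and ATF4 targets (3 of 3 positive) and the secreted ER proteins Creld2 and Manf kept their signs in the averaged comparison under each scaling tried.

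**Figure D3:**
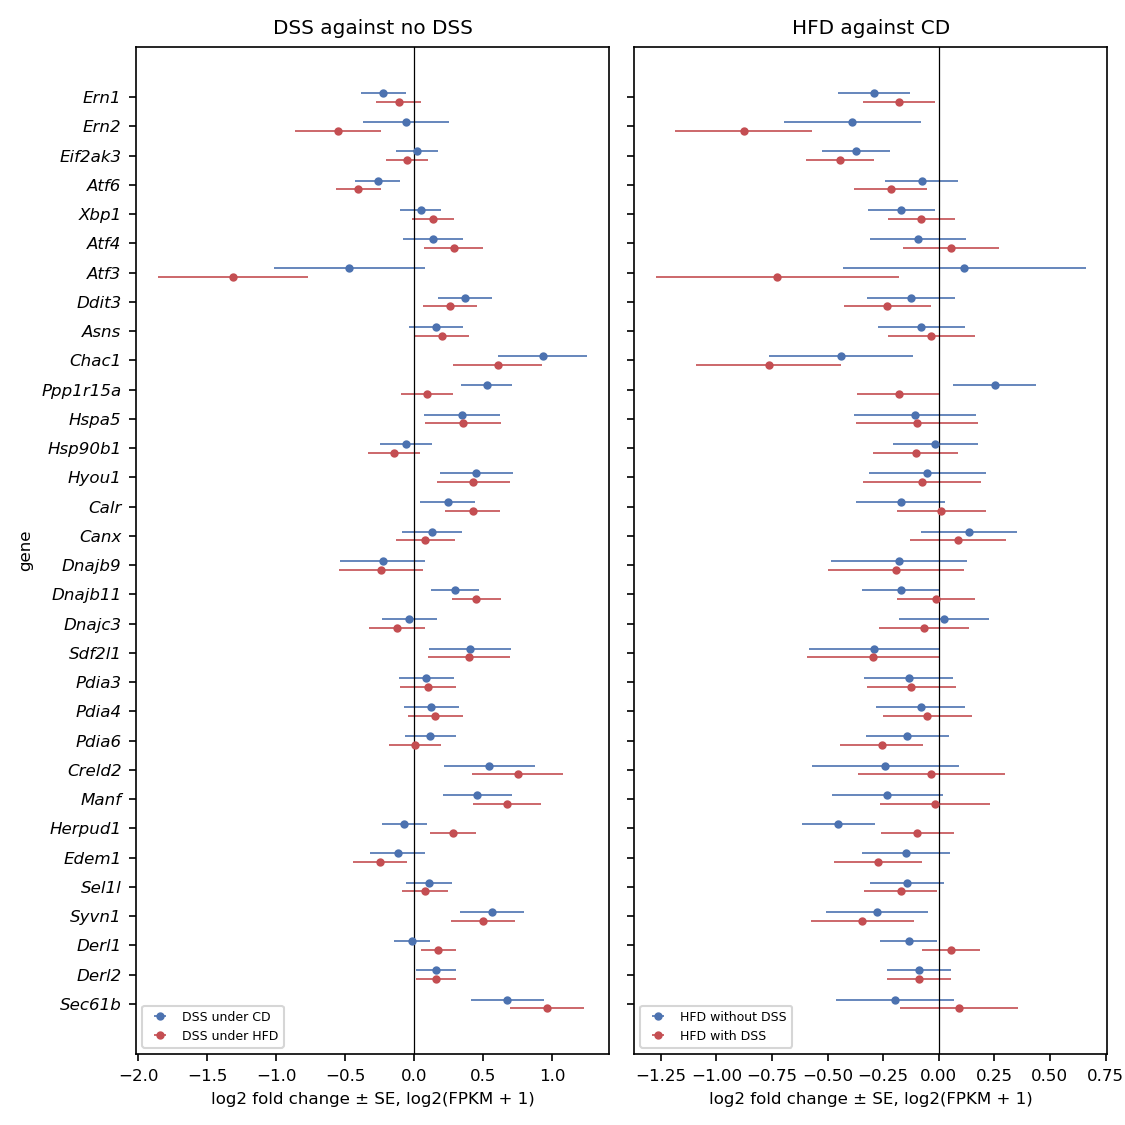
Log2 fold change with its SE for each of the 32 tested genes on the log2(FPKM + 1) scale, for DSS against no DSS under each diet (left) and HFD against CD without and with DSS (right). On the left Sec61b, Manf, Creld2 and Chac1 lie to the right of 0 and Atf6 and Atf3 to the left in both diets; on the right 28 of 32 genes without DSS and 27 of 32 with DSS lie to the left of 0.

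Some cell type markers moved with this comparison. Plasma cell markers summed to 6300 to 12300 FPKM without DSS and 3000 to 7850 with DSS, and 3 of the 13 (Jchain, Tnfrsf17, Eaf2) were lower in all 6 DSS libraries. In that comparison 0 were higher, but under CD alone Sdc1 and Prdm1 were higher in all DSS libraries. Of 11 neutrophil markers 3 were higher in all 6 DSS libraries (S100a9, Retnlg, Ltf), with S100a9 at 0 to 0.977 FPKM without DSS and 2.91 to 16.6 with DSS. The sums of the 11 overlapped, at 34.6 to 130 FPKM without DSS and 37.3 to 141 with DSS. Cd177, the neutrophil marker with the highest value, did not separate DSS from no DSS in either diet. It measured 129, 90.8 and 109 FPKM in CD and 132, 73.3 and 67.5 in CD+DSS. Of 8 neuron and glia markers 1 was higher in all 6 DSS libraries, the glial filament Gfap, at 0.908 to 1.22 and 2.76 to 9.79 FPKM. The 10 T and NK cell markers went in opposite directions in the 2 diets. They summed to 22.9 to 65.5 FPKM in CD and 72.2 to 165 in CD+DSS, but to 75.5 to 107 in HFD and 27.1 to 54.6 in HFD+DSS. The part of these markers in the results was not tested. Goblet cell sums overlapped (3010 to 9550 without DSS, 3180 to 6640 with DSS), and 0 of the 10 goblet markers separated these groups. Gene length also went with the fold change above 1000 bases. Among all tested genes with a summed exon length of over 1000 and up to 2000 bases the median fold change with DSS was 0.15, and above 8000 bases it was -0.12. In the shortest class, up to 1000 bases, which held 0 genes of the set, it was -0.01. The 5 short genes of the set (Ddit3, Chac1, Sdf2l1, Creld2, Sec61b) had a median of 0.65 and a range of 0.31 to 0.82. The 4 longest (Ern1, Atf6, Sel1l, Derl2) had a median of -0.04 and a range of -0.34 to 0.16. The part of length in these differences was not tested.

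**Figure D4:**
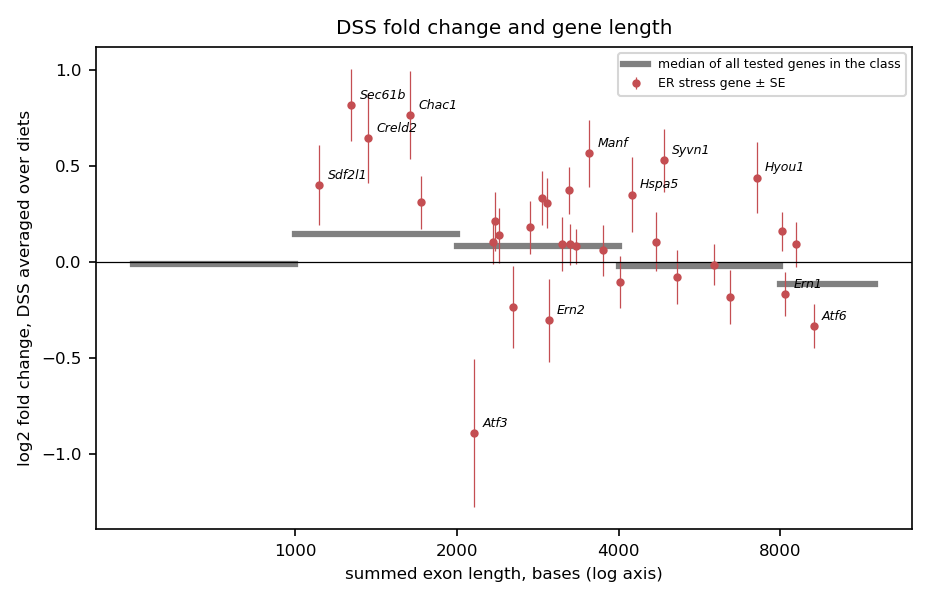
Log2 fold change with DSS averaged over diets (y axis, points with SE) against summed exon length in bases (x axis, log scale) for the 32 tested genes, with grey bars at the median of all tested genes in 5 length classes. The grey bar for genes up to 1000 bases is at -0.01. Beyond it the bars go from 0.15 for genes over 1000 and up to 2000 bases to -0.12 for genes above 8000 bases. Sec61b, Creld2 and Chac1 lie above their bar.

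Fold changes of genes with and without the ERSE overlapped, and the difference was not tested. The 8 genes with the full motif had DSS fold changes averaged over diets from -0.10 (Hsp90b1) to 0.65 (Creld2), with a median of 0.22 and 6 of 8 positive. The 19 tested genes with a window but no full motif ranged from -0.89 to 0.82, with a median of 0.14 and 14 of 19 positive. The 3 genes with the composite motif had 0.77 (Chac1), 0.11 (Herpud1) and -0.89 (Atf3).

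The diet comparisons ask how the set differed on the high-fat diet. In uninjured colon and with DSS, 0 of the 32 genes passed, and 0% of all 14179 genes passed in either comparison. Fold changes were mostly negative: 28 of 32 without DSS (median -0.14, against -0.02 for all genes) and 27 of 32 with DSS (median -0.10, against -0.03). Averaged over DSS, 30 of 32 were negative (median -0.13, against -0.02), with 0 passing here and 0% of all genes passing. Quantile normalization left 25 of 32 negative in the averaged comparison, with a median of -0.075, and 21 of 32 with DSS. In all genes 44.1% of the averaged fold changes were positive. The averaged median was -0.08 without CD replicate 3 and also without HFD+DSS replicate 3. The median without DSS was -0.03 when CD replicate 3 was left out, -0.09 without HFD replicate 2 and -0.22 without CD replicate 1, and the median with DSS was -0.04 when HFD+DSS replicate 3 was left out and -0.22 when HFD+DSS replicate 1 was.

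PERK mRNA separated the diets. Eif2ak3 (ENSMUSG00000031668, chr6:70844515-70905245) measured 11.2, 10.45 and 10.4 FPKM on CD and 8.12, 7.89 and 8.05 on HFD without DSS, against 11.6, 10.2 and 10.8 on CD and 7.86, 9.76 and 5.94 on HFD with DSS. Every HFD library, with or without DSS, was below every CD library. Means were 10.7 ± 0.432 FPKM in CD and 8.02 ± 0.115 in HFD (SD, n = 3), and 10.9 ± 0.735 in CD+DSS and 7.85 ± 1.91 in HFD+DSS. The fold change averaged over DSS was -0.41 ± 0.11 (limma unadjusted p = 0.00286, adjusted p = 0.827), and leaving out any 1 library kept it between -0.48 and -0.33. It did not pass the test. In all genes 0.141% had all 6 HFD libraries below the 6 CD libraries and 0.0494% had them above, and Eif2ak3 was the only 1 of the 32 in the first class, with 0 in the second.

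Ern2, the IRE1 form of mucous epithelium that is concentrated in goblet cells, measured 25.35, 15.1 and 25.45 FPKM on CD and 21.2, 17 and 11.6 on HFD without DSS, against 21.8, 18.02 and 21.8 on CD and 6.75, 16.6 and 10.7 on HFD with DSS. With DSS all HFD libraries were below all CD libraries, with a fold change of -0.88 ± 0.31 (limma adjusted p = 0.732), and without DSS the groups overlapped (-0.39 ± 0.31, adjusted p = 1.0). Averaged over DSS it was -0.63 ± 0.22 (adjusted p = 0.888). Goblet cell markers moved with it unevenly. The sums overlapped with DSS (3180 to 6640 FPKM in HFD+DSS, 3650 to 6030 in CD+DSS), but 4 of the 10 markers were lower in all HFD+DSS libraries than in all CD+DSS libraries and 0 were higher. These were the mucin Muc2 (401, 304 and 365 against 870, 1270 and 671 FPKM), Agr2, a disulfide isomerase needed for mucin folding (389, 659 and 328 against 828, 902 and 844), and the goblet cell transcription factors Spdef (16.6, 29.0 and 22.1 against 46.0, 44.7 and 49.4) and Atoh1 (at most 28.7 against at least 31.4). HFD+DSS replicate 1, the lowest library for Ern2, was also the lowest of all 12 for Atoh1, while its goblet sum of 6640 was led by Zg16 (2680) and Tff3 (1660). Without HFD+DSS replicate 1 the fold change of Ern2 with DSS was -0.58. The part of goblet cells in the Ern2 values was not tested. Some other marker sums separated the diets in opposite directions without and with DSS. The posterior Hox sums were lower in HFD than in CD and higher in HFD+DSS than in CD+DSS. The 10 T and NK cell markers summed to 22.9 to 65.5 FPKM in CD and 75.5 to 107 in HFD, and to 72.2 to 165 in CD+DSS and 27.1 to 54.6 in HFD+DSS. Other markers were lower on HFD both without and with DSS. The 6 Paneth cell markers, led by Ang4, summed to 241 to 3200 FPKM in CD and 25.3 to 147 in HFD. With DSS they summed to 47.8 to 121 in CD+DSS and 4.7 to 26.5 in HFD+DSS. Of 11 neutrophil markers Cd177 alone was lower in all 6 HFD libraries than in all 6 CD libraries, and 0 were higher. The part of these markers in the diet results was not tested.

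Ern1 without DSS was lower in every HFD library than in every CD library (-0.29 ± 0.16, limma adjusted p = 1.0). Herpud1 without DSS had the smallest p of the set (-0.45 ± 0.17, unadjusted 0.0188, limma adjusted p = 1.0). Sel1l and Derl1 were also below CD in all HFD libraries. These 5 genes, Eif2ak3 included, compare with 5.02% of all genes that were lower in all HFD libraries without DSS, and 0 of the 32 were higher in all of them, against 4.61% of all genes. With DSS, 4 genes were lower in all HFD libraries (Eif2ak3, Ern2, Chac1, Pdia6), against 5.85% of all genes, and 0 were higher, against 3.60%. Chac1 with DSS had a fold change of -0.77 ± 0.32 (limma adjusted p = 0.749), or -1.17 with a pseudocount of 0.1 and -1.26 with voom. Eif2ak3 with DSS had -0.44 ± 0.15 (adjusted p = 0.732), and -0.28 without HFD+DSS replicate 3. Atf6 and Syvn1 with DSS had -0.21 ± 0.16 and -0.34 ± 0.23. The unadjusted p was under 0.05 for 2 of the 32 genes without DSS, 3 with DSS and 4 averaged over DSS. Of all genes 588, 938 and 662 were (4.15%, 6.62% and 4.67%), and limma voom called 0 of the 32 in each.

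Whether the DSS difference itself depended on diet was tested by the interaction, the DSS fold change under HFD minus that under CD. Of the 32 genes 0 passed, and 0% of all genes passed. The unadjusted p was under 0.05 for 0 of the 32 genes and 769 of all genes (5.42%), and voom also called 0 of the 32. The smallest p belonged to Ppp1r15a (-0.43 ± 0.26), Herpud1 (0.35 ± 0.23) and Ern2 (-0.49 ± 0.44), each with a limma adjusted p of 1.0. Without HFD+DSS replicate 1 the values were -0.19 for Ern2 and 0.22 for Herpud1, and for Ern2 they were -0.25 without CD replicate 2, -0.30 without HFD replicate 1 and -0.79 without HFD+DSS replicate 2. For Hspa5 the interaction was 0.01 ± 0.39 and for Sec61b 0.29 ± 0.38, and the SE for Hspa5 is larger than its DSS fold change of 0.35 averaged over diets. A dependence on diet of that size was not detectable with 3 samples a group. The set was split, with 15 positive and 17 negative values.

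Around the 33 genes lie the other parts of the secretory and stress pathways, given by 8 lists of 177 genes, of which 168 were tested. In the DSS comparison averaged over diets 3 of the 168 rose and 0 fell, which is not above the 2.74% of all genes that passed. They are C/EBP transcription factors (Cebpb and Cebpd, in the list of other integrated stress response targets) and an apoptosis gene (Bak1, in the list of other sensors and regulators). Cebpb, a C/EBP transcription factor of inflammation and a partner of ATF4, measured 6.54, 5.67 and 9.93 FPKM on CD and 11.1, 5.31 and 6.42 on HFD without DSS, against 22.7, 15.4 and 31.3 on CD and 14.3, 16.1 and 25.6 on HFD with DSS. All DSS libraries were above all others, with a fold change of 1.35 ± 0.23 (limma adjusted p = 0.0138), called under each of the 18 alternatives. Cebpd, its relative, had 1.03 ± 0.19 (adjusted p = 0.0205), and Bak1, a pore-forming protein of apoptosis, 0.59 ± 0.11 (adjusted p = 0.0204). The calls of Cebpd and Bak1 were lost in 5 and 4 of the 18 alternatives.

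The other lists held no call. Their signs, here and in the diet comparison, are those on the deposited scale and were not checked under other scalings. With DSS averaged over diets 50.9% of all genes had positive fold changes. In the DSS comparison 10 of 12 aminoacyl-tRNA synthetases, which charge tRNAs and are ATF4 targets in part, had positive fold changes (median 0.19), with the smallest p at Wars (0.75 ± 0.23, limma adjusted p = 0.0969). Other ER folding and oxidation genes were mostly negative, 16 of 22 (median -0.12), with the smallest p at Dnajc10 (-0.44 ± 0.18, adjusted p = 0.185). Translocation and signal sequence genes other than Sec61b were 12 of 20 positive (median 0.04), with the smallest p at Sec62 (-0.43 ± 0.16, adjusted p = 0.138). Glycosylation genes were 10 of 15 positive (smallest p at Alg2, 0.30 ± 0.11, adjusted p = 0.131). Other ERAD genes were 12 of 21 positive, and their Fbxo6, a ubiquitin ligase subunit that binds glycoproteins, had all DSS libraries above the others (0.49 ± 0.12, adjusted p = 0.0616). ER to Golgi traffic genes were 12 of 25 positive, and their Sec13, a coat protein, was also separated (0.32 ± 0.09, adjusted p = 0.089).

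In the diet comparison averaged over DSS 138 of the 168 fold changes were negative and 0 passed. Of all genes 44.1% were positive and 0% passed. ER to Golgi traffic (23 of 25 negative, median -0.15), glycosylation (14 of 15, -0.18), translocation (17 of 20, -0.07) and ERAD genes (18 of 21, -0.10) had mostly negative values, whereas the synthetases were 8 of 12 negative (median -0.02). Kdelr3, a receptor that returns ER proteins from the Golgi, had -0.52 ± 0.17 and Ppib, an ER prolyl isomerase, -0.29 ± 0.10, both with a limma adjusted p of 0.873. Edem2 had -0.31 ± 0.13, Pgm3 -0.25 ± 0.09, Ssr2 -0.22 ± 0.11, Slc3a2 -0.20 ± 0.10 and Yars -0.14 ± 0.12, with adjusted p from 0.932 to 1.0. Yars had -0.06 without CD+DSS replicate 1 and -0.07 without HFD+DSS replicate 2. Casp12, an ER-associated caspase of rodents, had the smallest p among the other sensors and regulators, with a positive value (0.47 ± 0.17, adjusted p = 0.888).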

How the data were processed

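Colon mRNA of 12 mouse samples was analysed. The authors deposited 1 table of FPKM values per gene and sample, which are fragments scaled to gene length and library size. Per the labels' protocols, RNA came from an RNeasy mini plus kit and libraries from a SMARTER mRNA-Seq kit. Per the submitters' processing notes the build was mm10. Not given in the sources used here are the aligner, the counter, the annotation and any filter.

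Symbols came from a table of gene identifiers, and 54409 of 54532 identifiers matched. Positions and summed exon lengths came from GENCODE M21. Of 2 identifiers for Ddit3, the other was at 0 in all samples. Fragments were recovered from FPKM and exon length, with a library size inferred from the steps between low values. Of the values under 200 fragments, 98.2% to 98.5% were whole within 0.1 fragment.

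Groups came from the labels. Log2(FPKM + 1) was tested with limma 3.58.1 under R 4.3.3, by lmFit, contrasts.fit and eBayes with trend, in 1 fit with a mean per group. Genes needed an FPKM of at least 1 in 3 or more samples, and the Benjamini-Hochberg adjusted p had to be under 0.05. Fold changes on this scale understate the change of low genes and carry limma's standard error (SE). The fit was tested on simulated data. Averaged and within-diet comparisons use the same libraries. Alternatives were another pseudocount, no filter, rescaled or quantile-normalized libraries, only the groups compared, a replicate block, voom on recovered fragments, and each library left out.

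The genes, the other lists and the tests were chosen with earlier results of these data known. Given in every library are the sensors, the transcription factors, Hspa5, Herpud1 and the 3 smallest p of each comparison. Creld2 was added after its values were seen. Of each other list, the genes with the smallest p are named. The reading of FPKM between libraries rests on the authors' scaling. Protein sequences were not used here.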

Additional observations from a re-analysis of the deposited data

How the results depend on the processing

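The count of genes called with DSS averaged over diets was 1, and depended on the setting. It was 0 with no filter on low values, with libraries rescaled to the same summed FPKM, with quantile normalization and with the replicate block, and 0 to 4 when 1 library was left out. It remained 1 with a pseudocount of 0.1 and with voom. The 4 came without CD replicate 3, and the call of Sec61b held in 4 of the 18 alternatives. The median fold change of the genes with DSS under CD was 0.13 and -0.02 after quantile normalization. In the other comparisons the count stayed at 0 in every alternative run. Single-gene values under alternatives were followed only for the genes with the smallest p and a few others named above, a choice that favours stable signs. Of these 804 values, 0 changed sign, 23 lost a call and 3 gained one (Chac1, Creld2 and Manf, without CD replicate 3). Signs did change among the 32 tested genes. With DSS averaged over diets 23 were positive on the deposited scale and 16 after quantile normalization. Of 18 same-numbered pairs of libraries, 3 had a correlation of deviations above 0.1 (range -0.462 to 0.204). Differently numbered pairs were not compared, so whether the replicate numbers pair the samples was not settled. The replicate block moved all genes called with DSS from 389 to 162. With no filter 173 of all genes were called, with rescaled libraries 221, with voom 462, and with 1 library left out 114 (HFD replicate 2) to 479 (CD replicate 3). Depth limits Trib3 and Chac1, at 7 to 22 and 4 to 77 fragments.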
